A study of Mus musculus with 6 samples.

Results

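The genes described here are the nuclear-encoded subunits of the mitochondrial respiratory chain and the ATP synthase, with cytochrome c, in mouse pancreatic islets. They were taken by symbol: names that begin Ndufa, Ndufb, Ndufc, Ndufs or Ndufv (without the Ndufaf assembly factors), Uqcr, Cox4i, Cox5, Cox6, Cox7, Cox8 or Atp5, and Sdha to Sdhd, Cyc1 and Cycs. Of 109 such symbols in RefSeq, 86 had at least 1 probe among the 32494 genes of the array. Cox7b2 and Cox8c were not well above background on any array, which left 84 of the 19021 genes tested. The genes fell into complex I (36 tested), complex II (4), complex III (9), cytochrome c (1), complex IV (18, with Ndufa4 and its relative Ndufa4l2 counted there) and complex V, the ATP synthase (16). Of the 84, 83 were well above background on all 6 arrays, and Cox8b on the TrspFF arrays alone.

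Islet RNA was measured on 6 one-colour Agilent arrays, 2 for each of 3 groups, labelled with Cy3. All mice were labelled as male, of ICR background and 16 weeks of age, and all carried floxed Trsp alleles (TrspFlox/Flox). Trsp is the gene of selenocysteine tRNA, without which selenoproteins cannot be made. TrspFF islets had no Cre, Trsp-RIPKO islets carried RIP-Cre, driven by a rat insulin promoter, and Trsp-Ins1KO islets carried Ins1-Cre. RIP-Cre lines are known to be active in some hypothalamic neurons as well as in beta cells, Ins1-Cre chiefly in beta cells. Islets also hold cells that neither Cre is meant to reach. No Cre-only mice without floxed alleles were among the samples, so the presence of Cre and the loss of Trsp cannot be told apart. Whether both arrays of a group came from different animals is not in the labels, and the p-values therefore rest on array-to-array spread that may be technical.

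The respiratory chain moves electrons from NADH (complex I) and succinate (complex II) through complex III and cytochrome c to oxygen at complex IV. Complexes I, III and IV pump protons, and complex V uses the proton gradient to make ATP. In beta cells the ATP made from glucose closes potassium channels and so triggers insulin release. Several complex IV subunits exist in paired forms that differ between tissues, among them Cox4i1 and Cox4i2, Cox6a1 and Cox6a2, and Cox7a1 and Cox7a2.

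Facts about the arrays touch every result below. The 75th percentile of processed intensity lay between 203.0 and 247.2 in TrspFF and Trsp-RIPKO but was 121.9 and 110.7 in Trsp-Ins1KO. The TrspFF and Trsp-Ins1KO arrays lay on slide 1 and the Trsp-RIPKO arrays on slide 2, and for that group slide and genotype cannot be told apart. In the authors' deposited value table, columns named TrspFF held the values of the Trsp-Ins1KO scanner files (r = 1.0 over 19486 probes) and the reverse. The groups below are those of the scanner files, and under the table's own names every difference of Trsp-Ins1KO from TrspFF has the opposite sign and the comparisons of these groups with Trsp-RIPKO change places. Trsp itself was not found among the probes. Gpx1, a selenoprotein mRNA picked here after its values were seen, was 3.59 and 3.54 in TrspFF, against 2.95 and 2.70 in Trsp-RIPKO and against 2.48 and 2.34 in Trsp-Ins1KO (log2 over the 75th percentile). Xist, which female cells express, was -5.79 and -5.60 in Trsp-Ins1KO but lay between -0.56 and 1.34 on the other 4 arrays, against the label of male. The Y-linked Ddx3y was above background on all 6 arrays, at 0.97 and 0.78 in TrspFF, against -0.53 and -0.44 in Trsp-RIPKO and against 0.75 and 0.51 in Trsp-Ins1KO, as was Eif2s3y.

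The defining markers of beta cells, Ins1 and Ins2 among them, were well above background on all 6 arrays (10 of 10 markers). Their summed level, in multiples of the 75th percentile, was 3270 and 3670 in TrspFF, against 3630 and 3890 in Trsp-RIPKO and against 5910 and 6480 in Trsp-Ins1KO. Single beta-cell markers differed from the sum: 4 of 10 fell and 0 rose in Trsp-RIPKO, and 2 fell and 6 rose in Trsp-Ins1KO. In Trsp-RIPKO, Ucn3 (-1.21), Slc2a2 (-0.62, or -0.71 in Trsp-Ins1KO), Nkx6-1 (-0.57) and Slc30a8 (-0.43, or -0.75 in Trsp-Ins1KO) were the ones that fell. Acinar markers summed to 4.74 and 4.91, 10.9 and 12.5, and 10.1 and 9.93 in that order of groups, with 10 of 11 called higher in Trsp-RIPKO and 8 in Trsp-Ins1KO and the acinar factor Ptf1a above background on no array. Intestinal markers summed to 7.49 and 7.17, 9.89 and 10.1, and 9.66 and 9.14, with Cdx1 and Cdx2 above background on no array. Vil1 was by far the brightest of them, so the sum hides the others. Of 5 tested, 4 were called higher in Trsp-RIPKO and 2 in Trsp-Ins1KO, and 0 lower in either. Fabp1 rose by 5.15 and 4.97 in these lines, and Fabp2 (5.66) and Tff3 (2.53) rose in Trsp-RIPKO. Fabp1 and Fabp2 were at background in TrspFF, so their sizes are not exact. Fibroblast and stellate markers summed to 12.2 and 12.8, 19.1 and 19.0, and 4.2 and 4.42. Markers of dividing cells summed to 1.21 and 1.21, 3.46 and 3.45, and 1.76 and 1.32. Duct markers summed to 0.966 and 0.867, 2.14 and 2.07, and 1.07 and 0.987. Alpha-cell markers summed to 717 and 746, 617 and 665, and 527 and 509. Delta-cell markers summed to 271 and 267, 221 and 233, and 162 and 152. Gcg and Sst were by far the brightest of these lists, so the sums hide the others. Of 5 alpha-cell markers, 0 were called in Trsp-RIPKO, and 2 were lower and 0 higher in Trsp-Ins1KO. Of 3 delta-cell markers, 1 was lower and 1 higher in Trsp-RIPKO, and 3 were lower in Trsp-Ins1KO. The part of these markers, of the signal and of the slide in the results below was not tested.

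Trsp-RIPKO islets carried lower mRNA of respiratory chain and ATP synthase subunits than TrspFF islets. At a limma adjusted p under 0.05, 45 of 84 genes fell (53.6%) and 2 rose (2.38%), against 17.5% lower and 18.9% higher among all genes tested (36.4% called in all). The median difference was -0.29 on the log2 scale, against 0.0 over all genes. Among the 8581 genes with a mean level above the 75th percentile, as 77 of the 84 had, 25.6% fell, 15.2% rose and the median was -0.10. Lower mRNA per cell and fewer cells that carry it cannot be told apart in whole islets. The genes called lower were spread over the complexes: 20 of 36 in complex I, 1 of 4 in complex II, 5 of 9 in complex III, 10 of 18 in complex IV and 9 of 16 in complex V, with medians of -0.29, -0.20, -0.29, -0.30 and -0.30. Cox7c and Cox6b2 were the 2 that rose, both of complex IV.

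The count of 45 leaned on each array. Without TrspFF replicate 1 it was 1, without TrspFF replicate 2 it was 4, and without Trsp-RIPKO replicate 1 or 2 it was 11 or 6, where the same fits called 0.82%, 1.48%, 6.62% and 2.67% of all genes lower. The median moved less, between -0.30 and -0.27. With arrays centred on their median probe, 70 genes fell and 0 rose, but all genes then shifted by -0.24 (38.2% lower, 10.6% higher), and the members' median less that of all genes was still -0.29. With no filter on dim probes 10 genes fell, where that fit called 2.59% of 32494 genes lower and 5.7% higher. The members' median was still -0.29.

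Trsp-Ins1KO islets also carried lower mRNA of these subunits than TrspFF islets. Of 84 genes 55 fell (65.5%) and 5 rose (5.95%), against 23.0% lower and 23.0% higher among all genes (45.9% called in all). The median was -0.29, against -0.01 over all genes and -0.02 over genes above the 75th percentile, of which 2253 fell (26.3%) and 2230 rose. By complex, 25 of 36 fell in complex I, 1 of 4 in complex II, 6 of 9 in complex III, 10 of 18 in complex IV and 12 of 16 in complex V, and Cycs fell. Among the 5 that rose were Ndufa4l2, Sdhc, Cox6b2 and Cox4i2. This comparison shares its TrspFF arrays with that of Trsp-RIPKO, so the pair of medians is given side by side and not as separate evidence.

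Without TrspFF replicate 1 or 2 the count that fell was 19 or 18, and without Trsp-Ins1KO replicate 2 it was 31, where the same fits called 9.55%, 10.5% and 18.1% of all genes lower, while the median stayed between -0.34 and -0.26. Without TrspFF replicate 1 or 2 the count that rose was 3 in both cases. With normexp background correction 73 genes fell and the median was -0.52, while all genes shifted by 0.16 (25.1% lower, 48.4% higher).

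**Figure D1:**
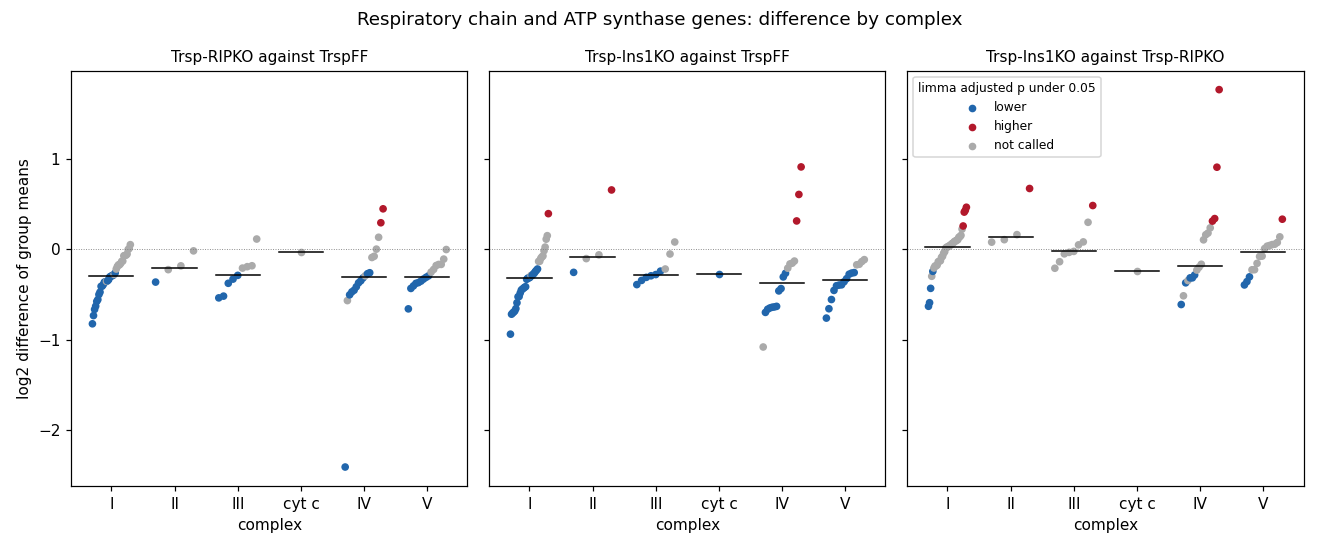
Each point is 1 of 84 genes, placed by complex (horizontal axis) and by its log2 difference of group means (vertical axis), in the 3 comparisons. Black bars are medians, and colours give the limma call at an adjusted p under 0.05. Most points of complexes I, III, IV and V lie below 0 in the first and second panels (medians of -0.29 over all 84 genes in each), and the third panel centres near 0 (median 0.02).

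Set directly against each other, Trsp-Ins1KO and Trsp-RIPKO islets differed in single subunits, in both directions, with a median near 0. In Trsp-Ins1KO, 12 of 84 genes were lower (14.3%) and 11 higher (13.1%) than in Trsp-RIPKO, with a median of 0.02, against 19.4% lower and 19.3% higher among all genes (38.7% called in all; median -0.01). Genes above the 75th percentile had 14.6% lower and 26.2% higher. The differences ran both ways within complexes: 4 lower and 4 higher in complex I, 5 and 4 in complex IV, 3 and 1 in complex V, 0 and 1 in complexes II and III each. The largest was Cox6a2, which was 3.41-fold higher in Trsp-Ins1KO than in Trsp-RIPKO. The split depended on the scaling: it was 3 lower and 21 higher with median centring (all genes shifted by 0.16, 12.4% lower and 30.0% higher) and 46 lower with normexp (all genes shifted by 0.14, 19.8% lower and 43.6% higher). The split by complex moved too. With median centring it was 2 lower and 8 higher in complex I, 1 and 7 in complex IV and 0 and 2 in complex V. With normexp it was 17 and 2, 9 and 5, and 11 and 0.

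Leaving out single arrays left between 4 and 10 genes lower and between 5 and 10 higher, the lowest counts without Trsp-RIPKO replicate 1 (4 lower, 5 higher). The counts were 5 and 10 without Trsp-Ins1KO replicate 2, 10 and 6 without Trsp-Ins1KO replicate 1, 5 and 5 without Trsp-RIPKO replicate 2, and 6 and 7 without either TrspFF array. Over all genes these fits called 11.1% to 18.1% lower and 10.9% to 16.5% higher. Without Trsp-Ins1KO replicate 1 the median was -0.04.

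**Figure D2:**
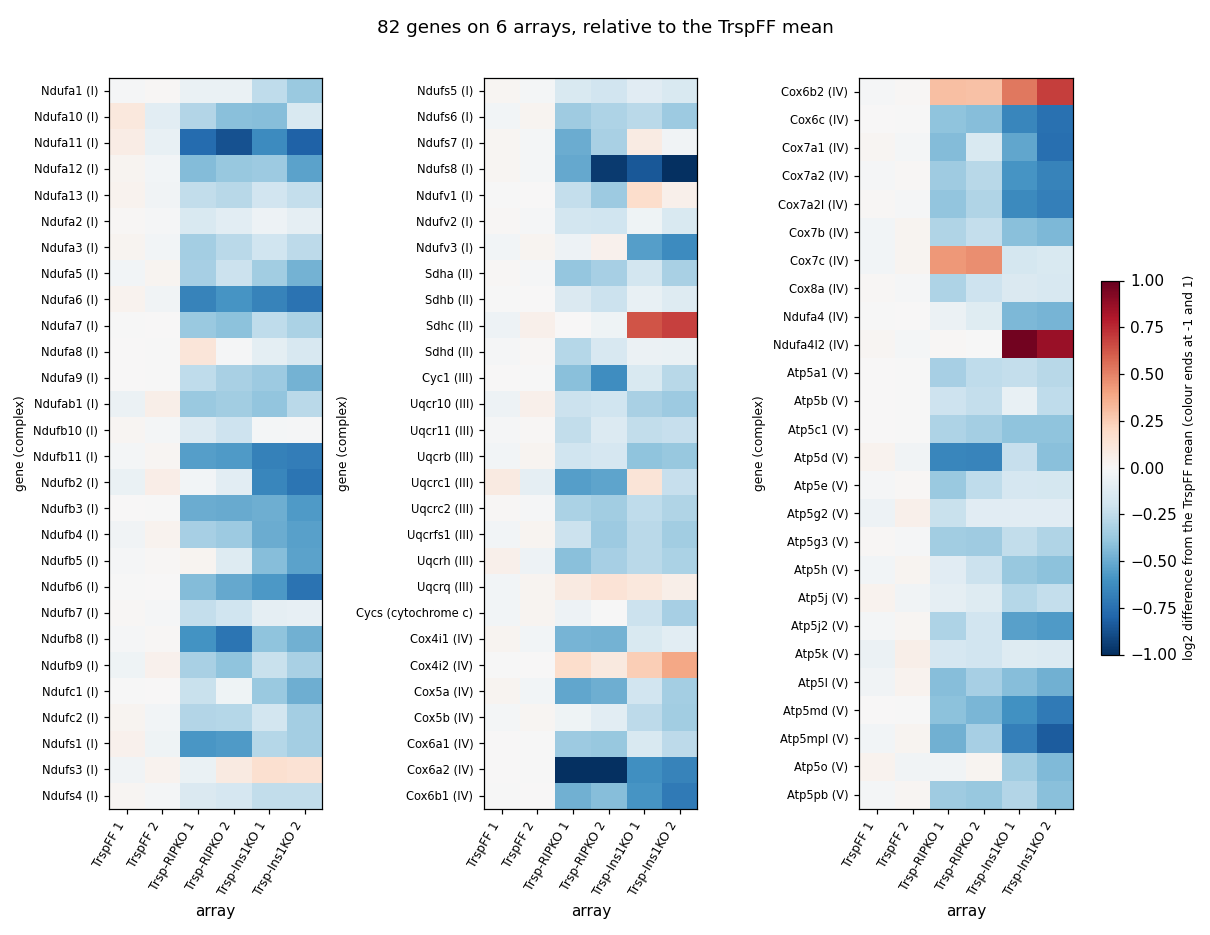
Each row is a gene (complex in brackets) and each column 1 of 6 arrays. Colour gives the log2 level minus the mean of the TrspFF arrays, with colour ends at -1 and 1. Blue prevails in the Trsp-RIPKO and Trsp-Ins1KO columns, Cox6a2 in Trsp-RIPKO (difference -2.41) lies beyond the colour end, and Sdhc and Ndufa4l2 are red in Trsp-Ins1KO alone.

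Complex I has a core that carries electrons, conserved from bacteria, and accessory subunits around it. Among its genes, Ndufa11, an accessory subunit of the membrane arm, is shown with the 250 bases before its RefSeq transcription start (assembly GRCm38.p6, chr17:56717512-56717761, plus strand), because it fell in both knockout lines and holds a full match to the motif of NRF1, a factor known to drive respiratory chain genes. Capitals mark the match, which begins 60 bases before the start.
Ndufa11: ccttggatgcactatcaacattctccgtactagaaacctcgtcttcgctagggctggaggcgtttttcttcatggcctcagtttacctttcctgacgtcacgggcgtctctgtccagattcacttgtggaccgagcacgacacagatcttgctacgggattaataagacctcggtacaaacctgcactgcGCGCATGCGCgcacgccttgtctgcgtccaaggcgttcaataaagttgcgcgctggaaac
The motif searched was the 10 letters in capitals, which read the same on both strands, in windows of 300 bases that end after the start; the bases past the start are not printed. It was present in 5 of 74 windows of 69 members (6.76%: Atp5g2, Atp5k, Cox6a1, Ndufa11 and Uqcrc1) and in 0.971% of all 32851 windows. A match is a description of letters and not of binding.

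Ndufa11 was 2.31 and 2.17 in TrspFF, against 1.47 and 1.37 in Trsp-RIPKO and against 1.61 and 1.43 in Trsp-Ins1KO (log2 over the 75th percentile, as all levels below, which follow this order of groups). Every knockout array lay below both TrspFF arrays. It fell by 0.82 in Trsp-RIPKO (SE 0.10, limma adjusted p = 0.00802) and by 0.72 in Trsp-Ins1KO (adjusted p = 0.00556), with n = 2 arrays a group here and below. Ndufs8, a core subunit that holds iron-sulfur clusters, was 1.29 and 1.26, 0.76 and 0.32, and 0.42 and 0.25 by group. Its Trsp-RIPKO arrays were far apart but both below TrspFF. It fell by 0.73 in Trsp-RIPKO (SE 0.16, limma adjusted p = 0.0251) and by 0.94 in Trsp-Ins1KO (adjusted p = 0.0093). Ndufa6, an accessory subunit of the matrix arm, was 3.94 and 3.88, 3.25 and 3.32, and 3.24 and 3.17, so that it fell by 0.63 and 0.70 (limma adjusted p = 0.00741 and 0.00296). Ndufb8, an accessory subunit of the membrane arm, was 5.23 and 5.26, 4.65 and 4.52, and 4.85 and 4.77, and fell by 0.66 in Trsp-RIPKO (limma adjusted p = 0.00759) and by 0.44 in Trsp-Ins1KO (adjusted p = 0.0101). Ndufb11, also of the membrane arm, fell by 0.56 and 0.68 on its brightest probe, but its other probe read 0.26 and 0.28.

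Core genes of complex I differed between the lines in 3 of 6 cases, all higher in Trsp-Ins1KO. Of these 6 core genes (Ndufs1, Ndufs3, Ndufs7, Ndufs8, Ndufv1 and Ndufv2), 4 fell in Trsp-RIPKO (median -0.35) and 2 in Trsp-Ins1KO (median -0.04), and 0 rose in either. The median of the direct differences was 0.20. All genes gave 17.5% and 23.0% lower against TrspFF in Trsp-RIPKO and Trsp-Ins1KO, and 19.4% lower and 19.3% higher in the direct comparison. Of the 29 accessory genes, 16 fell in Trsp-RIPKO (median -0.29) and 23 in Trsp-Ins1KO (median -0.33). In the direct comparison 4 were lower (13.8%, below the share of all genes) and 0 higher. Ndufs7, which holds the last cluster before quinone, was 4.68 and 4.64, 4.17 and 4.34, and 4.74 and 4.63, lower in Trsp-RIPKO than in either other group (limma adjusted p = 0.0256 against TrspFF and 0.0189 against Trsp-Ins1KO).

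Ndufv1, the NADH-binding subunit, followed Ndufs7: it was 4.47 and 4.47, 4.23 and 4.11, and 4.65 and 4.52, and differed by 0.41 between the lines (limma adjusted p = 0.0176). Ndufs1, the largest core subunit, was 3.37 and 3.28, 2.74 and 2.76, and 3.04 and 2.98, and fell in Trsp-RIPKO by 0.58 (limma adjusted p = 0.00788) and in Trsp-Ins1KO by 0.32 (adjusted p = 0.0183). Its direct difference was 0.26 (limma adjusted p = 0.0373). Ndufs3 read 0.01 and 0.15 and Ndufv2 -0.19 and -0.10 against TrspFF in Trsp-RIPKO and Trsp-Ins1KO, none of them called. Scaling moved these differences: with normexp the direct differences of Ndufv1 (0.12, limma adjusted p = 0.234) and Ndufs1 (0.08, adjusted p = 0.38) were not called, and with quantile normalization that of Ndufs1 was not (adjusted p = 0.144).

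Ndufb2 and Ndufv3 were lower in Trsp-Ins1KO than in either other group. Ndufb2, an accessory subunit of the membrane arm, was 3.83 and 3.96, 3.87 and 3.80, and 3.25 and 3.17. It differed from Trsp-RIPKO by -0.63 (SE 0.082, limma adjusted p = 0.00534), and the Trsp-RIPKO and TrspFF arrays overlapped. Ndufv3, an accessory subunit of the NADH-binding module, was 6.38 and 6.43, 6.36 and 6.45, and 5.85 and 5.77, with a difference of -0.59 from Trsp-RIPKO (limma adjusted p = 0.00501). A dimmer second Ndufv3 probe read 0.60 in that comparison and 0.57 against TrspFF, so its probes disagree in sign, and the mean over probes gave 0.00 (0.005 on the log2 scale, limma adjusted p = 0.955). Ndufb5 (-0.43) and Ndufa1 (-0.24), both accessory, were also lower in Trsp-Ins1KO than in Trsp-RIPKO. With median centring neither was called (-0.26 and -0.08, limma adjusted p = 0.109 and 0.568), and the Ndufa1 call was lost in 6 of 10 settings.

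Not every complex I call held when single arrays were left out. The calls of Ndufa11 and Ndufa6 in Trsp-Ins1KO held in all 6 such fits, as did the direct differences of Ndufb2 and Ndufv3. Ndufa11 in Trsp-RIPKO was lost without TrspFF replicate 1 (limma adjusted p = 0.0572), as was Ndufs1 in Trsp-RIPKO (0.0629) and Ndufs8 in Trsp-Ins1KO (0.0549). Without either TrspFF array Ndufb8 (up to 0.0566) and Ndufs8 (up to 0.115) were lost in Trsp-RIPKO, and Ndufs8 also without Trsp-RIPKO replicate 2. The Trsp-RIPKO calls of Ndufs7 (up to 0.13) and Ndufv1 (up to 0.178) were lost without any 1 of the 4 arrays compared, and that of Ndufs1 in Trsp-Ins1KO (up to 0.119) without either TrspFF array or Trsp-Ins1KO replicate 2. Of the direct differences, that of Ndufs1 was lost in all 6 fits (up to 0.124), Ndufs7 without replicate 1 of either knockout line (up to 0.0748), and Ndufv1 without Trsp-Ins1KO replicate 1 or Trsp-RIPKO replicate 2 (up to 0.0775). Those of Ndufb5 (without Trsp-Ins1KO replicate 2 or Trsp-RIPKO replicate 1, up to 0.0704) and Ndufa1 (in every fit except that without Trsp-Ins1KO replicate 1, up to 0.145) were lost too.

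Complex II, which is also an enzyme of the citric acid cycle, has 4 nuclear-encoded subunits and no mitochondrial ones. Sdhc, a membrane anchor, went its own way. It was 2.19 and 2.30 in TrspFF, against 2.25 and 2.20 in Trsp-RIPKO and against 2.87 and 2.93 in Trsp-Ins1KO. The first and second groups overlapped and the Trsp-Ins1KO arrays lay above both. The rise was 0.66 against TrspFF (SE 0.074, limma adjusted p = 0.00348), a 1.58-fold level, and 0.67 against Trsp-RIPKO (adjusted p = 0.0036). A second Sdhc probe read 0.33 and 0.38 in these comparisons, the same signs at a smaller size. These calls held without any single array and under every other setting run, except under the authors' table's own names.

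Sdha, the flavoprotein that oxidizes succinate, was 3.35 and 3.32, 2.94 and 3.0, and 3.15 and 3.01. It fell by 0.36 in Trsp-RIPKO (SE 0.079, limma adjusted p = 0.0242) and by 0.25 in Trsp-Ins1KO (adjusted p = 0.049). Sdhb, the iron-sulfur subunit, read -0.18 and -0.10, and Sdhd, the other anchor, -0.22 and -0.06, none of them called. The Sdha calls were lost without any 1 of the 4 arrays compared in Trsp-RIPKO (up to adjusted p = 0.13 in limma). In Trsp-Ins1KO the Sdha call was lost in every such fit except that without Trsp-Ins1KO replicate 1 (up to 0.198), and under median centring (0.0506), the mean over probes (0.0509), no filter (0.0886), the replicate block (0.0687) and the fit of only the groups compared (0.0777).

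Complex III passes electrons from ubiquinol to cytochrome c. The window before Uqcrh, the hinge subunit that touches cytochrome c1, is shown because it holds the motif of ETS factors such as GABPA, another family known to act on these genes (GRCm38.p6, chr4:116075071-116075320, minus strand). The capitals mark the match, which is the motif's reverse complement and lies 11 bases before the start.
Uqcrh: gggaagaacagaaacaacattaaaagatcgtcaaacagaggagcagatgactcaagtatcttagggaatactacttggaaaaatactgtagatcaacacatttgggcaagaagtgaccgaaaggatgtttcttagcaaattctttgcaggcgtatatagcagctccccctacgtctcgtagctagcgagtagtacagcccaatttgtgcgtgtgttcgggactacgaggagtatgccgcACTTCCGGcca
This motif, CCGGAAGT, was in 5 of 74 member windows (6.76%: Atp5h, Cox8a, Ndufs3, Uqcr11 and Uqcrh) and in 3.89% of all windows, searched on both strands.

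Uqcrh was 5.98 and 5.87 in TrspFF, against 5.50 and 5.59 in Trsp-RIPKO and against 5.65 and 5.61 in Trsp-Ins1KO, with all knockout arrays below TrspFF. It fell by 0.37 in Trsp-RIPKO and by 0.29 in Trsp-Ins1KO (limma adjusted p = 0.0212 and 0.0316). Cyc1, cytochrome c1, was 2.58 and 2.58, 2.16 and 1.96, and 2.43 and 2.30. It fell by 0.52 in Trsp-RIPKO (SE 0.097, limma adjusted p = 0.0174) and read -0.22 in Trsp-Ins1KO, which was not called (adjusted p = 0.123). Uqcrc1, a core protein, was 1.33 and 1.15, 0.69 and 0.71, and 1.37 and 1.00. Its Trsp-Ins1KO arrays spanned those of TrspFF, and its Trsp-RIPKO arrays lay below all others: it fell by 0.54 (SE 0.14, limma adjusted p = 0.0385), with a direct difference of 0.49 (adjusted p = 0.0467).

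Uqcrc2, the other core protein, fell by 0.33 and 0.28 in Trsp-RIPKO and Trsp-Ins1KO (limma adjusted p = 0.0196 and 0.0222), and Uqcrfs1, the Rieske iron-sulfur protein, by 0.29 and 0.31 (0.0476 and 0.0324). The Uqcrfs1 call in Trsp-RIPKO was lost in 5 of 10 settings (limma adjusted p up to 0.137), and that in Trsp-Ins1KO with no filter (0.0601). Uqcrb and Uqcr10, small subunits, fell in Trsp-Ins1KO by 0.39 and 0.34 (limma adjusted p = 0.00882 and 0.0158) and read -0.18 and -0.21 in Trsp-RIPKO. Uqcrq read 0.11 and 0.08 on its brightest probe, and was on that probe the one complex III gene above 0 in both comparisons. Its other probe read 0.70 in Trsp-RIPKO and -0.05 in Trsp-Ins1KO. Cycs, the electron carrier itself, was 3.79 and 3.85, 3.76 and 3.81, and 3.60 and 3.48. It fell by 0.27 in Trsp-Ins1KO (limma adjusted p = 0.0363) and read -0.03 in Trsp-RIPKO.

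Every Trsp-RIPKO call named for complex III was lost when either TrspFF array or Trsp-RIPKO replicate 2 was left out, with limma adjusted p up to 0.0949 for Cyc1, 0.122 for Uqcrc2, 0.128 for Uqcrh, 0.173 for Uqcrc1 and 0.197 for Uqcrfs1. All but Cyc1 were lost also without Trsp-RIPKO replicate 1, and Uqcrfs1 in all 6 fits. In Trsp-Ins1KO, Uqcrb (up to 0.0663), Uqcr10 (0.102), Uqcrc2 (0.13), Uqcrfs1 (0.152) and Cycs (0.174) were lost without either TrspFF array. Without Trsp-Ins1KO replicate 2, all of these except Uqcrb were lost too, as was Uqcrfs1 without Trsp-Ins1KO replicate 1 and Cycs without either Trsp-RIPKO array. The direct difference of Uqcrc1 was lost in every such fit except that without Trsp-Ins1KO replicate 2 (up to 0.153).

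Complex IV, cytochrome c oxidase, held Cox6a2, the member with the largest called difference in Trsp-RIPKO. Cox6a2, the form of subunit 6A best known from heart and skeletal muscle, was 5.32 and 5.30 in TrspFF, against 2.92 and 2.89 in Trsp-RIPKO and against 4.70 and 4.64 in Trsp-Ins1KO. The groups did not overlap, and the arrays of each group lay close together. It fell by 2.41 in Trsp-RIPKO (SE 0.065, limma adjusted p = 0.000474), to 0.188 of the TrspFF level, and by 0.64 in Trsp-Ins1KO (adjusted p = 0.00284), to 0.642. The lines differed by 1.77 (SE 0.065, limma adjusted p = 0.000374). All 3 calls held without any single array and under every other setting run; only the authors' table's own names turned the sign against TrspFF in Trsp-Ins1KO. Among the 8581 genes above the 75th percentile, Cox6a2 was the lowest in Trsp-RIPKO against TrspFF. Of 13 muscle markers, 7 (Ckm, Actc1, Actn2, Mb, Mylpf, Myh1 and Myh4) were above background on no array. The summed level of all 13 was 0.935 and 1.01 in TrspFF, against 0.855 and 1.15 in Trsp-RIPKO and against 1.51 and 1.4 in Trsp-Ins1KO. Of the 4 tested, 0 were called in Trsp-RIPKO against TrspFF. In Trsp-Ins1KO against TrspFF, Tnni2 (0.92) and Tnnc2 (1.80) were called higher and 0 lower. In the direct comparison Acta1 (1.84) and Tnni2 (0.90) were called higher and 0 lower. Acta1 and Tnnc2 were above background on 3 arrays each.

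Cox6a1, the widely expressed form of the same subunit, has a full NRF1 match, which is why its window is shown (GRCm38.p6, chr5:115348959-115349208, minus strand, the match in capitals 162 bases before the start).
Cox6a1: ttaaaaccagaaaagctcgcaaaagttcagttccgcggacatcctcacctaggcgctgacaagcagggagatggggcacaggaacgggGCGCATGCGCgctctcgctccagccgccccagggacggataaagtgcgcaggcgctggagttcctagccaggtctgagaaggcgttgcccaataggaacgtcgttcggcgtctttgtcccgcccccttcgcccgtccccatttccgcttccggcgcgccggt
Cox6a1 was 7.15 and 7.14, 6.78 and 6.76, and 6.99 and 6.88. It fell by 0.37 in Trsp-RIPKO (SE 0.072, limma adjusted p = 0.0186) and read -0.21 in Trsp-Ins1KO, which was not called (adjusted p = 0.0653). No window for Cox6a2 was in the table used.

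For subunit 6B the common form fell in both lines and the other rose, a call that in Trsp-RIPKO was lost in 5 of 10 settings, and for subunit 4 the common form fell in Trsp-RIPKO and the other rose in Trsp-Ins1KO. Cox4i1, the common form of subunit 4, was 5.61 and 5.56, 5.12 and 5.11, and 5.44 and 5.48, and fell by 0.47 in Trsp-RIPKO (SE 0.065, limma adjusted p = 0.00995). It read -0.13 in Trsp-Ins1KO, and the direct difference was 0.34 (limma adjusted p = 0.0147), which became -0.07 (adjusted p = 0.431) with normexp. Cox4i2, its counterpart known from hypoxia and lung, was -1.29 and -1.29, -1.12 and -1.20, and -1.05 and -0.91, and rose by 0.31 in Trsp-Ins1KO (limma adjusted p = 0.0281; 0.0736 with median centring). Cox6b1 was 2.03 and 2.04, 1.56 and 1.61, and 1.45 and 1.33, and fell by 0.45 and 0.65 in the 2 lines (limma adjusted p = 0.0132 and 0.00356). Cox6b2, the form known from testis, was -1.29 and -1.27, -0.98 and -0.99, and -0.75 and -0.59. It rose by 0.29 in Trsp-RIPKO (limma adjusted p = 0.0429) and by 0.61 in Trsp-Ins1KO (adjusted p = 0.00498), but in Trsp-RIPKO the difference was 0.06 with median centring (adjusted p = 0.604) and 0.18 with normexp (0.0675), and was not called with quantile normalization (0.0844), the replicate block (0.0539) or no filter (0.128).

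Ndufa4, now counted with complex IV, and Ndufa4l2, its relative known as a target of hypoxia-inducible factor, went in opposite directions in Trsp-Ins1KO. Ndufa4l2 was -0.51 and -0.55 in TrspFF, against -0.52 and -0.54 in Trsp-RIPKO and against 0.43 and 0.33 in Trsp-Ins1KO. TrspFF and Trsp-RIPKO overlapped, and the Trsp-Ins1KO arrays lay, on average, 0.91 higher than either (1.88-fold, SE 0.070, limma adjusted p = 0.00186 against TrspFF and 0.00176 against Trsp-RIPKO). Ndufa4 was 4.49 and 4.49, 4.44 and 4.37, and 4.04 and 4.02. It fell by 0.46 in Trsp-Ins1KO (limma adjusted p = 0.0058), and was 0.37 below Trsp-RIPKO (adjusted p = 0.0119; 0.124 with median centring). Endothelial markers, which are above background in these islets, summed to 36.9 and 38.1, 50.2 and 50.3, and 60.3 and 66.5 in TrspFF, Trsp-RIPKO and Trsp-Ins1KO. Kdr and Flt1 were by far the brightest of them, so the sum hides the others. Of 5 tested, 4 were called higher in Trsp-RIPKO and 3 in Trsp-Ins1KO, and 0 lower in either. The part of endothelial markers in the values of Ndufa4 and Ndufa4l2 was not tested.

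**Figure D3:**
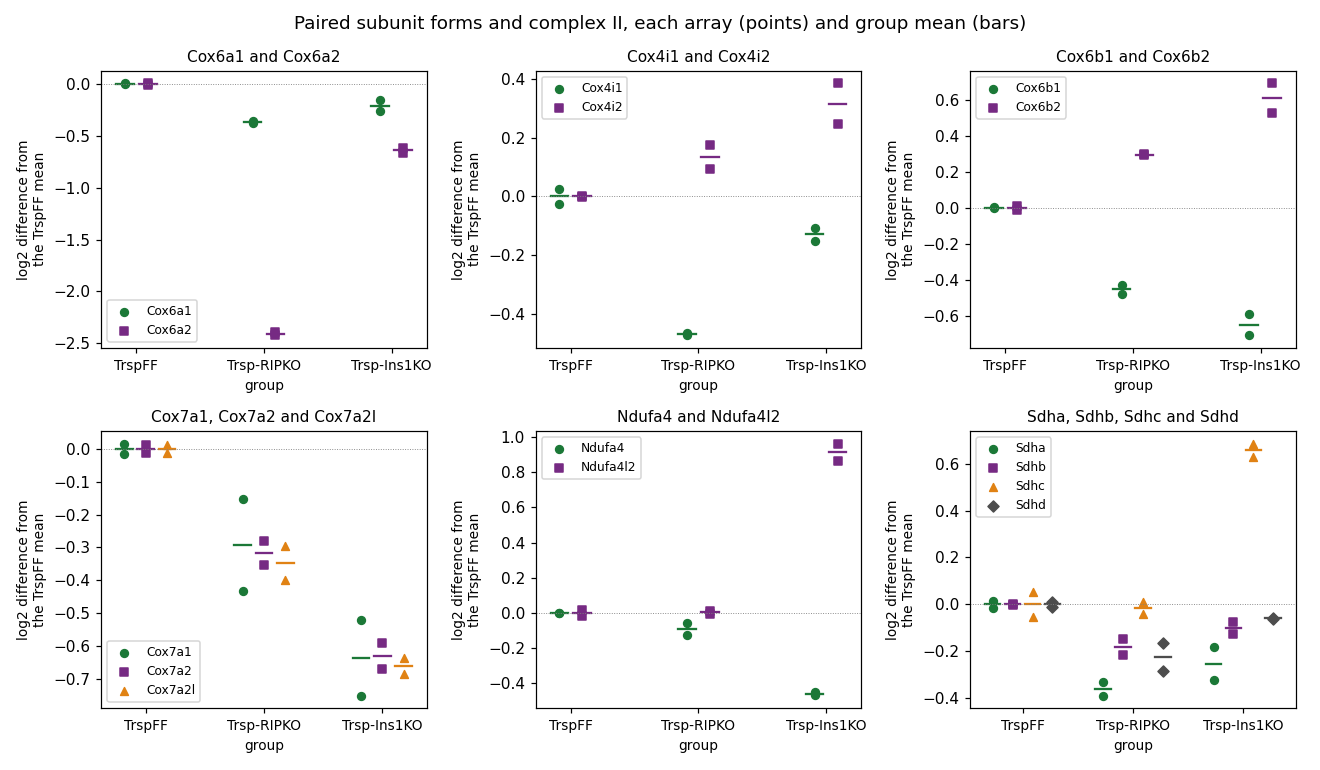
Levels of paired subunit forms of complex IV and of the 4 subunits of complex II, as the log2 difference from the TrspFF mean (vertical axis; scales differ between panels) in the 3 groups. Points are single arrays and bars are group means. Cox6a2 falls by 2.41 in Trsp-RIPKO and by 0.64 in Trsp-Ins1KO, Ndufa4l2 (0.91) and Sdhc (0.66) are high in Trsp-Ins1KO alone, and Cox6b1 and Cox6b2 part in both lines.

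Cox7a2l, Cox7a2 and Cox6c fell in both lines and further in Trsp-Ins1KO. Cox7a2l, known as a factor in supercomplex assembly, was 6.47 and 6.45, 6.06 and 6.16, and 5.82 and 5.77, and fell by 0.35 and 0.66 (limma adjusted p = 0.0213 and 0.00323). Cox7a2 fell by 0.32 and 0.63 (limma adjusted p = 0.0264 and 0.0035) and Cox6c, a small membrane subunit, by 0.41 and 0.70 (0.0137 and 0.00273). The direct differences of these genes were -0.32, -0.31 and -0.28 (limma adjusted p = 0.0237, 0.0234 and 0.0285), and each was lost with median centring (0.246, 0.25 and 0.372). Cox7a1, the muscle form, was -0.62 and -0.65, -1.07 and -0.79, and -1.16 and -1.39, and fell by 0.64 in Trsp-Ins1KO (limma adjusted p = 0.0148). Cox5a, a subunit on the matrix side, fell by 0.50 in Trsp-RIPKO (limma adjusted p = 0.0122) and by 0.26 in Trsp-Ins1KO (0.0446). Cox8a fell by 0.26 in Trsp-RIPKO (limma adjusted p = 0.0419) and read -0.15 in Trsp-Ins1KO. That Cox8a call was lost in 5 of 10 settings (limma adjusted p from 0.0501 with only the groups compared to 0.133 with no filter).

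Cox7c rested on 1 probe of 3. On its brightest probe it was 3.54 and 3.59, 4.0 and 4.03, and 3.39 and 3.42, a rise of 0.45 in Trsp-RIPKO (limma adjusted p = 0.0106) and a direct difference of -0.61 (adjusted p = 0.00341). The second probe, nearly as bright, read -0.65 in Trsp-RIPKO, and the third, dim one -0.11. The mean over probes gave a direct difference of 0.06 (limma adjusted p = 0.612), so the direction for Cox7c depends on the probe. Cox8b, another muscle form, was above background on the TrspFF arrays alone, at -3.98 and -4.0, and was tested only through that group. These levels lay near the lowest signal above background on those arrays (-4.41 and -4.32). It was not called in Trsp-RIPKO or Trsp-Ins1KO (limma adjusted p = 0.26 and 0.0599). The bound of at least 1.18-fold for TrspFF over Trsp-RIPKO is therefore not evidence of a difference. Against Trsp-Ins1KO no fold could be given.

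Within complex IV, the Trsp-Ins1KO calls of Cox6a2, Cox6b1, Cox6b2, Cox6c, Cox7a2, Cox7a2l, Ndufa4 and Ndufa4l2 held without any single array. The Trsp-RIPKO calls of Cox5a (up to limma adjusted p = 0.083), Cox6a1 (0.11), Cox6b1 (0.0841), Cox6b2 (0.185), Cox7a2 (0.133), and Cox7a2l (0.124) were lost without any 1 of the 4 arrays compared, that of Cox8a (0.195) in all 6 fits, and that of Cox4i1 (0.0756) without either TrspFF array or Trsp-RIPKO replicate 2. Cox4i2 (0.128) and Cox7a1 (0.0772) were lost in Trsp-Ins1KO without either TrspFF array or Trsp-Ins1KO replicate 2. The direct difference of Cox4i1 was lost without either Trsp-RIPKO array (up to 0.0638), and that of Ndufa4 without Trsp-RIPKO replicate 1 (0.0567). Those of Cox6c (0.105), Cox7a2 (0.0975), Cox7a2l (0.0969) and Cox6b2 (0.116) were lost in 5 or 6 of the 6 fits.

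Complex V joins a rotating membrane ring to a catalytic head. Atp5g3, which encodes a form of the ring subunit c, is shown with the window before its start because it holds the motif of the estrogen-related receptors, factors known to act on mitochondrial genes (GRCm38.p6, chr2:73911327-73911576, minus strand). Capitals mark the match, the reverse complement of the motif, 52 bases before the start.
Atp5g3: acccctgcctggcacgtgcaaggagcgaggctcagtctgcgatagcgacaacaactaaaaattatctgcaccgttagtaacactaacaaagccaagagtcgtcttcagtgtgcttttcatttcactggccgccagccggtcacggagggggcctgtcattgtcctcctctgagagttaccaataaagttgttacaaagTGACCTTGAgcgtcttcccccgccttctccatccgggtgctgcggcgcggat
The motif, TCAAGGTCA, was in 2 of 74 member windows (2.7%: Atp5g3 and Sdhd) and in 0.423% of all windows. The core motif of YY1, a further factor known to act on these genes, was in 5 (6.76%: Atp5j, Ndufa9, Ndufs4, Ndufs6 and Ndufs7), against 0.852% of all windows. No match says only that these letters are not in the window, and 17 members, Cox6a2, Ndufa4l2 and Sdhc among them, had no window in the table used.

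Atp5g3 was 5.16 and 5.13 in TrspFF, against 4.80 and 4.79 in Trsp-RIPKO and against 4.90 and 4.84 in Trsp-Ins1KO, and fell by 0.35 and 0.27 (limma adjusted p = 0.0167 and 0.0224). Of the catalytic head, Atp5a1 (alpha) fell by 0.29 and 0.26 (limma adjusted p = 0.0287 and 0.0322). With normexp Atp5a1 read -0.10 in Trsp-RIPKO (limma adjusted p = 0.338), and its Trsp-Ins1KO call was lost with quantile normalization (-0.17, 0.0992), the replicate block (0.0517) and no filter (0.0669). Atp5b (beta), which carries the catalytic sites, was 5.60 and 5.59, 5.39 and 5.36, and 5.52 and 5.34, and was not called in either line (limma adjusted p = 0.0936 and 0.166). Atp5c1 (gamma), the turning shaft, fell by 0.33 and 0.40 on its brightest probe (limma adjusted p = 0.0182 and 0.00723), but its other probe read 0.41 in Trsp-RIPKO and -0.53 in Trsp-Ins1KO, and the mean over probes gave 0.04 in Trsp-RIPKO (adjusted p = 0.656). Atp5d (delta of the head) was 3.38 and 3.31, 2.69 and 2.68, and 3.11 and 2.93. It fell by 0.66 in Trsp-RIPKO (SE 0.087, limma adjusted p = 0.0094), more than in Trsp-Ins1KO (0.32, adjusted p = 0.0335), with a direct difference of 0.33 (adjusted p = 0.0349) that became -0.02 with normexp (0.845).

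Atp5mpl, Atp5md and Atp5j2, small membrane subunits, had the largest falls of complex V in Trsp-Ins1KO, while Atp5k and Atp5g2, also in the membrane, read -0.14 and -0.11 and were not called. Atp5mpl was 5.02 and 5.08, 4.57 and 4.72, and 4.37 and 4.22, and fell by 0.40 in Trsp-RIPKO (SE 0.092, limma adjusted p = 0.0271) and by 0.76 in Trsp-Ins1KO (adjusted p = 0.004). Atp5md, known for holding the enzyme in dimers, was 5.45 and 5.44, 5.03 and 4.99, and 4.84 and 4.74, and fell by 0.43 and 0.66 (limma adjusted p = 0.0135 and 0.00326). Atp5j2 was 5.90 and 5.94, 5.61 and 5.73, and 5.38 and 5.35, and fell by 0.55 in Trsp-Ins1KO (limma adjusted p = 0.00498). The groups of these genes did not overlap. Atp5o, the stalk protein that confers oligomycin sensitivity, was 3.16 and 3.08, 3.09 and 3.15, and 2.77 and 2.68. It was 0.39 lower in Trsp-Ins1KO than in Trsp-RIPKO (limma adjusted p = 0.0142), and Trsp-RIPKO overlapped TrspFF. The direct differences of Atp5mpl and Atp5j2 were -0.36 and -0.30 (limma adjusted p = 0.0339 and 0.0287), and with median centring neither these nor that of Atp5o (0.12) were called (0.209 and 0.263).

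In complex V, Atp5j2, Atp5md and Atp5mpl kept their Trsp-Ins1KO calls without any single array. The Trsp-RIPKO calls of Atp5a1 (up to limma adjusted p = 0.148), Atp5c1 (0.114), Atp5md (0.0893) and Atp5mpl (0.13) were lost without any 1 of the 4 arrays compared, and Atp5d (0.0664) without either TrspFF array or Trsp-RIPKO replicate 2. In Trsp-Ins1KO, Atp5a1 (0.152) was lost without any 1 of the 4 and Atp5c1 (0.0586) without either TrspFF array. The direct differences of Atp5d (0.119), Atp5mpl (0.133) and Atp5j2 (0.111) were lost in 5 or 6 of the 6 fits, and that of Atp5o without Trsp-RIPKO replicate 2 (0.0678).

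Genes around the respiratory chain were counted from lists that were written with earlier results known. Calls of single genes in these lists were not followed through left-out arrays or other settings. Mitochondrial ribosomal proteins, which make the mitochondrially encoded subunits, fell in 46 of 77 in Trsp-RIPKO (59.7%, 1 higher, median -0.30), against 17.5% of all genes, and in 38 of 77 in Trsp-Ins1KO (49.4%, 3 higher, median -0.27), against 23.0%. The ribosomal genes that rose included Mrpl1 in Trsp-RIPKO (0.28) and Mrpl10 (0.49) and Mrpl4 (0.31) in Trsp-Ins1KO. Mrpl28 fell by 0.97 in Trsp-RIPKO (limma adjusted p = 0.00927), and Mrpl46 by 1.03 in Trsp-Ins1KO (0.00746). Mrps33 fell by 0.77 in Trsp-RIPKO (limma adjusted p = 0.00432), and Mrpl50 by 0.97 in Trsp-Ins1KO (0.0019). Assembly factors fell in 15 of 40 (37.5%, 1 higher, median -0.21) and 19 of 40 (47.5%, 6 higher, median -0.25), against the same shares of all genes. Among them Ndufaf3, which acts early in complex I assembly, was 0.76 and 0.58 in TrspFF, against -0.54 and -0.60 in Trsp-RIPKO and against -0.35 and -0.46 in Trsp-Ins1KO, and fell by 1.24 and 1.08 (SE 0.091, limma adjusted p = 0.00362 and 0.00214). Coa7, a complex IV assembly factor, fell by 0.75 and 1.03 (limma adjusted p = 0.00861 and 0.00243). In Trsp-Ins1KO it read -3.51 and -3.60, where the lowest signal above background was -3.59 and -3.39. The size of its fall there is therefore not exact. Timmdc1, of complex I assembly, rose by 0.69 in Trsp-Ins1KO (limma adjusted p = 0.00484). Ttc19, of complex III assembly, rose by 0.37 and 0.57 (limma adjusted p = 0.0448 and 0.0106).

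Pyruvate dehydrogenase and citric acid cycle genes fell in 8 of 17 in Trsp-RIPKO (47.1%, 0 higher) and in 6 of 17 in Trsp-Ins1KO (35.3%, 1 higher), against 17.5% and 23.0% of all genes, with medians of -0.24 in both. Fh1, fumarase, fell by 0.63 and 0.56 (limma adjusted p = 0.00648 and 0.00399) and Idh3b, a subunit of isocitrate dehydrogenase, by 0.65 and 0.70 (0.0156 and 0.00826). The 1 that rose was Ogdh, the first subunit of the 2-oxoglutarate dehydrogenase complex, at 3.61 and 3.66, 3.65 and 3.94, and 4.77 and 4.76, by 1.13 in Trsp-Ins1KO (SE 0.11, limma adjusted p = 0.00264). Carriers, porins and uncouplers fell in 7 of 13 in Trsp-RIPKO (53.8%, 0 higher). In Trsp-Ins1KO 3 of these fell and 3 rose (23.1% each), the share of all genes (23.0% each). Ucp2, an uncoupler studied in beta cells, fell by 0.61 in Trsp-RIPKO (limma adjusted p = 0.0208) and rose by 0.53 in Trsp-Ins1KO (0.0216), with a direct difference of 1.14 (SE 0.12, adjusted p = 0.00349). Ucp3 rose by 1.04 in Trsp-Ins1KO (limma adjusted p = 0.00479). The aspartate/glutamate carrier gene Slc25a12 fell by 0.57 in Trsp-RIPKO, and Slc25a5, an ADP/ATP carrier, and Mpc2, of the pyruvate carrier, fell by 0.49 and 0.40 in Trsp-Ins1KO.

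Of 15 regulators of mitochondrial biogenesis, 2 fell and 1 rose in Trsp-RIPKO (13.3% lower, against 17.5% of all genes; median -0.04). In Trsp-Ins1KO 4 fell and 5 rose (26.7% and 33.3%, against 23.0% each; median 0.09). Twnk, the mitochondrial DNA helicase, fell by 0.59 in Trsp-RIPKO (limma adjusted p = 0.0167), and Pprc1, a coactivator, rose by 0.63 in Trsp-Ins1KO (0.0161). Tfam, which packs and transcribes mitochondrial DNA, was 0.95 and 0.86, 0.40 and 0.34, and 0.43 and 0.27, and fell by 0.54 and 0.56 (limma adjusted p = 0.0127 and 0.00706). Gabpa, the ETS factor named above, fell by 0.48 in Trsp-Ins1KO (limma adjusted p = 0.0049), and Esrrg, an estrogen-related receptor, rose by 0.62 and 0.71 (0.0352 and 0.0188). In the direct comparison the lists counted 12 lower and 11 higher of 77 ribosomal genes, 7 and 6 of 40 assembly factors, 3 and 3 of 17 cycle genes, 1 and 4 of 13 carriers and 2 and 3 of 15 regulators, where all genes gave 19.4% lower and 19.3% higher. Among the largest direct differences called in these lists were lower values for Mrpl16 (-0.77), Mrpl50 (-0.53), Ndufaf8 (-0.59), Coa6 (-0.52), Pdhx (-0.35), Dld (-0.29), Tfb1m (-0.57), Gabpa (-0.40) and Slc25a5 (-0.23). Higher values were those of Mrpl37 (0.54), Mrpl38 (0.53), Ecsit (0.60), Coa3 (0.60), Ogdh (0.97), Twnk (0.68), Polrmt (0.51) and Ucp3 (0.65). The array held 0 probes that could be matched to transcripts of the mitochondrial genome by symbol, so the mitochondrially encoded subunits were not analysed here.

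**Figure D4:**
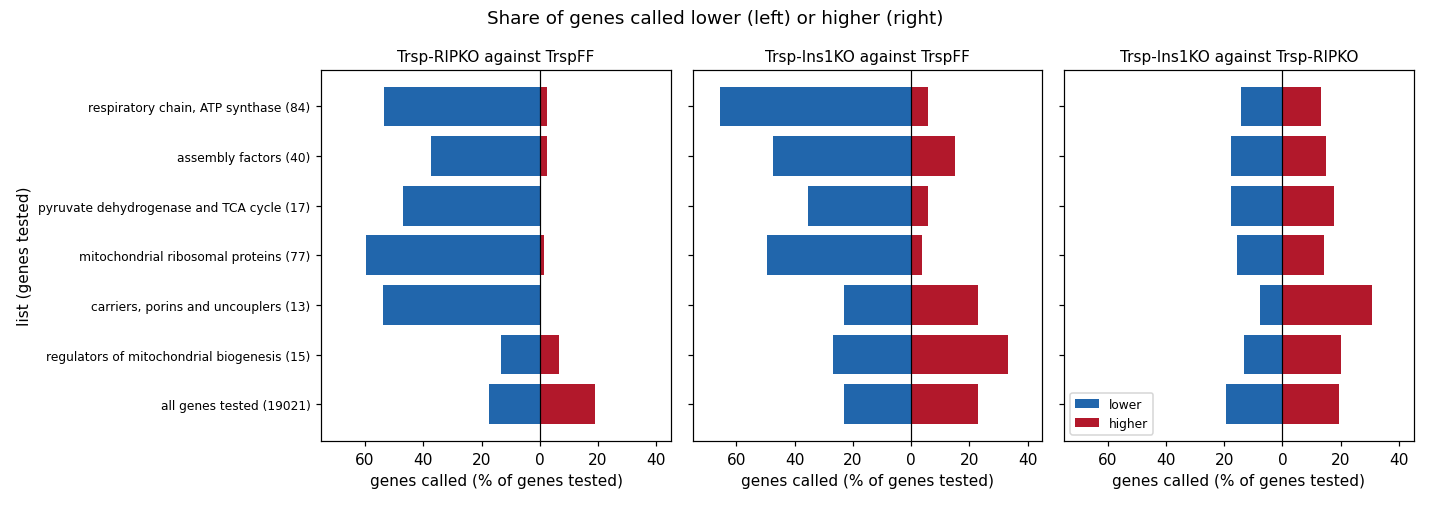
Share of genes called lower (blue, to the left) and higher (red, to the right), in percent of the genes tested in each list, for the 3 comparisons. The bottom bar is all 19021 genes tested, with 17.5% lower and 18.9% higher in Trsp-RIPKO against TrspFF. In the first panel every list except the regulators has a longer blue bar than all genes, up to 59.7% for the ribosomal proteins.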

How the data were processed

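Per the file headers, the authors scanned 6 one-colour Agilent arrays of design 026655 and read them with Feature Extraction 10.7.3.1. Each deposited scanner file holds the processed intensity of every spot, background-subtracted and not scaled between arrays, with flags of 0 or 1 for spots above background and outliers, and the median intensity of spot and local background. The authors' deposited table holds log2 values of 39485 probes, whose scaling is stated in no source used here. Its columns were matched to scanner files, with medians of 0.087, 0.141, 0.011, -0.029, -0.079 and -0.045.

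The processed intensity was put on the log2 scale relative to the 75th percentile of its array. Normalization and tests used neither the 1377 control spots nor spots with an outlier flag, and spots of a probe were averaged, leaving 39426 probes. Only the normexp background correction, an alternative, was fitted on all spots, control and flagged spots included. RefSeq accessions named 26053 probes (66.1%) through a GRCm38.p6 table, used for names and printed promoter windows only. Probes were kept if every array of 1 group or more read them well above background. A gene was its brightest kept probe, 23 members having several. The tests were those of limma 3.58.1 under R 4.3.3, lmFit then eBayes, over all 6 arrays (5.1 total degrees of freedom), two-sided, with Benjamini-Hochberg adjustment over 19021 genes at 0.05. The script was tested on simulated data. The number of arrays limits the precision.

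Members, gene lists and marker lists were chosen with earlier results of these data known. Genes named are the 3 largest called in each complex and comparison, complex I core genes, complex II, the main complex III subunits, cytochrome c, paired complex IV forms and the alpha, beta and gamma subunits, and the 2 largest called either way of each further list. Uqcrh, Uqcrq, Uqcr10, Cox5a, Atp5g3, Atp5k, Atp5g2, Ndufb11, Ndufb5 and Ndufa1 were added where a window, a probe or a direct difference called for it. Bounds ("at least") set the brighter mean against the lowest signal above background or the dim probe's own. Alternatives were normexp, quantile normalization, median centring, other filters and probe rules, other fits, the authors' table, and leaving out each array. Summaries were made in Python 3.11.15 (pandas 2.3.3, numpy 2.4.6), and figures in matplotlib 3.10.9. The values of 1 member and of 1 gene of the further lists are not reported here; both stay in the counts over whole complexes and lists, but the member is not among the core genes counted.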

Additional observations from a re-analysis of the deposited data

Results flagged for a closer look

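These genes differed between the knockout lines in the direct comparison of Trsp-Ins1KO with Trsp-RIPKO, so that a change against TrspFF seen in one line was not of the same size in the other. The values are log2 differences, negative where Trsp-Ins1KO was lower, each with a limma adjusted p under 0.05 and 2 arrays a group. The shares of members called, 14.3% lower and 13.1% higher, were below those of all genes (19.4% and 19.3%). Of the 22 calls listed here, 5 held in all 10 settings other than left-out arrays and the table's own names. Many were also lost when a single array was left out. Trsp-RIPKO alone lay on slide 2, so slide and line cannot be told apart here.

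In complex I, Ndufb2 (-0.63), Ndufv3 (-0.59), Ndufb5 (-0.43) and Ndufa1 (-0.24) were lower in Trsp-Ins1KO, and the core genes Ndufs7 (0.43), Ndufv1 (0.41) and Ndufs1 (0.26) were higher. In complexes II and III, Sdhc (0.67) and Uqcrc1 (0.49) were higher. In complex IV, Cox7c (-0.61), Ndufa4 (-0.37), Cox7a2l (-0.32), Cox7a2 (-0.31) and Cox6c (-0.28) were lower, and Cox6a2 (1.77), Ndufa4l2 (0.91), Cox4i1 (0.34) and Cox6b2 (0.31) were higher. In complex V, Atp5o (-0.39), Atp5mpl (-0.36) and Atp5j2 (-0.30) were lower and Atp5d (0.33) was higher. Ndufa4l2, Sdhc and Ndufb2 held without any single array and under every setting except the authors' table's own names. Cox6a2 also held without any single array and under every setting, and kept its sign under the table's own names. The second Cox7c probe read -0.12 and its dimmest probe 0.91, and the dim second Ndufv3 probe read 0.60.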

How the results depend on the processing

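With 2 arrays a group, fits that leave out an array leave 1 in that group, which is then assumed to vary like the others. The slide as a block could not be fitted for Trsp-RIPKO, whose arrays fill a slide of their own. Trsp-Ins1KO and TrspFF share a slide, so the fit of only those groups is the within-slide value (43 lower, 5 higher). That fit called 20.6% of all genes lower and 20.7% higher. Replicate numbers did not pair the samples (correlations of deviations 0.093, 0.079 and 0.065). With the replicate number as a block the counts were 41 lower and 1 higher in Trsp-RIPKO, 46 and 5 in Trsp-Ins1KO, and 10 and 10 in the direct comparison. The same fit called 16.1% and 18.6%, 22.2% and 22.4%, and 18.5% and 18.6% of all genes lower and higher.

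For Trsp-RIPKO against TrspFF (45 lower, 2 higher, median -0.291), the counts were 70 and 0 with median centring, 10 and 1 with no filter on dim probes and 11 and 12 under the authors' table's own column names. In that order these fits called 38.2%, 2.59% and 19.2% of all genes lower and 10.6%, 5.7% and 19.4% higher. Quantile normalization and the replicate block each gave 1 higher (16.0% and 18.6% of all genes). The median was -0.528 with median centring, -0.235 with quantile normalization and -0.02 under the table's names. Without single arrays the counts ranged from 1 to 44 lower and 0 to 2 higher, and the median from -0.303 to -0.27. For Trsp-Ins1KO against TrspFF (55 lower, 5 higher, median -0.29), the table's names gave 5 lower, 55 higher and 0.29, with 23.0% of all genes called each way. The median was -0.361 with median centring and -0.519 with normexp. Without single arrays the counts ranged from 18 to 47 lower and 3 to 5 higher, and the median from -0.336 to -0.26. For Trsp-Ins1KO against Trsp-RIPKO (12 lower, 11 higher, median 0.021), the counts were 2 and 45 under the table's names, 3 and 21 with median centring, 6 and 7 with only the groups compared and 23 and 17 with a trended robust fit. In that order these fits called 18.9%, 12.4%, 14.6% and 22.3% of all genes lower and 17.5%, 30.0%, 13.5% and 23.3% higher. Normexp gave 46 lower (19.8% of all genes) and no filter 7 higher (25.7% of all genes). The median was 0.29 under the table's names, 0.188 with median centring, -0.201 with normexp and -0.025 with quantile normalization. Without single arrays the counts ranged from 4 to 10 lower and 5 to 10 higher, and the median from -0.036 to 0.046.

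Of the 74 calls of single genes examined, all kept their direction except under the table's own names, under the mean over probes (Atp5c1 in Trsp-RIPKO 0.044; direct differences of Cox7c 0.062 and Ndufv3 0.005) and with normexp (direct differences of Atp5d -0.021 and Cox4i1 -0.069). The cause was not tested. Under the table's names, in which the Trsp-Ins1KO and TrspFF columns change places, these log2 differences changed sign. In Trsp-RIPKO against TrspFF they were Atp5c1 0.075, Atp5md 0.23, Atp5mpl 0.36, Cox6b1 0.20, Cox6b2 -0.31, Cox7a2 0.32, Cox7a2l 0.32, Ndufs8 0.21, Uqcrfs1 0.023. In Trsp-Ins1KO against TrspFF they were Atp5a1 0.26, Atp5c1 0.40, Atp5j2 0.56, Atp5md 0.66, Atp5mpl 0.76, Cox4i2 -0.32, Cox6a2 0.64, Cox6b1 0.65, Cox6b2 -0.61, Cox6c 0.70, Cox7a1 0.64, Cox7a2 0.63, Cox7a2l 0.66, Cycs 0.28, Ndufa11 0.72, Ndufa4 0.46, Ndufa4l2 -0.91, Ndufa6 0.70, Ndufs1 0.32, Ndufs8 0.94, Sdha 0.25, Sdhc -0.66, Uqcr10 0.34, Uqcrb 0.39, Uqcrc2 0.28, Uqcrfs1 0.31. In the direct comparison they were Atp5j2 0.25, Atp5mpl 0.40, Atp5o 0.001, Cox6b2 -0.29, Cox6c 0.41, Cox7a2 0.32, Cox7a2l 0.35, Ndufa1 0.067, Ndufa4 0.089, Ndufa4l2 -0.003, Ndufb2 0.064, Ndufb5 0.052, Ndufv3 0.001. With the table's columns taken by matching scanner file, all 74 calls stood. The 74 did not include genes of the further lists, nor every member call named above, such as those of Atp5g3.

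Calls lost without a change of sign numbered 33 of 74 with no filter, 14 with only the groups compared, 12 with median centring, 12 with quantile normalization, 9 with the replicate block, 6 with normexp and 3 with the mean over probes. In the 3 comparisons 7 of 26, 20 of 26 and 5 of 22 calls held in all 10 settings other than left-out arrays and the table's own names. In the same order 1, 14 and 6 of 26, 26 and 22 such calls held without any single array. The dimmer Trsp-Ins1KO arrays (51.4% and 52.2% of probes above background) limit weak probes most, and small differences of genes near background were not detectable.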
